A study of Triticum aestivum with 27 samples.

Results

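The transcriptomes of wax-ripe wheat spikes of Shengsimai and Zhoumai18 were compared at 0 h, before any time in the sprouting chamber. Every gene with an FPKM (fragments per kilobase of transcript, scaled to library size) of 1 or more in at least 3 of the 6 libraries entered the comparison, which took in 44034 of the 153699 genes in the deposited table. Of these, 37607 carried an identifier on a reference chromosome, 437 were unplaced and 5990 were new loci. RNA was sequenced in 3 varieties at 0, 48 and 96 h of a wetting treatment at 22 ± 1 °C and 95 ± 5% relative humidity, with 27 libraries in all. Shengsimai is described by the study as red-grained and highly resistant to pre-harvest sprouting, and Zhoumai18 as white-grained and highly susceptible. The 3 libraries of each variety at 0 h came from single spikes, cut at the wax-ripening stage, soaked and then frozen, and neither variety carried a transgene or received another agent. A difference between them is one between 2 varieties that differ in grain colour, in resistance and across the genome, and these cannot be told apart.

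Pre-harvest sprouting is the germination of grain on the ear in wet weather. Dormancy of the ripe grain is held by abscisic acid, whose signal passes through protein phosphatases and SnRK2 kinases to transcription factors of the ABI3/VP1 and bZIP families, and these in turn switch on proteins of late seed maturation such as Em and the embryo globulins. Gibberellin acts in the opposite way and brings on the amylases and proteases that break down the endosperm. At the wax-ripening stage the grain has mostly filled, so a whole spike holds embryo, aleurone, starchy endosperm, seed coat, glumes and rachis together. A lower value can come from fewer cells of a type or from less RNA per cell, and these cannot be told apart in whole spikes.

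Total counts were 46079889 to 50903676 per library. The most abundant 10 genes took 19.0 to 20.99% of the counts in Shengsimai and 11.3 to 12.2% in Zhoumai18, and 37281 to 37610 genes reached 1 FPKM in a Shengsimai library against 43822 to 44082 in a Zhoumai18 library. Scaling by the TMM method, which equalises the bulk of genes between libraries, gave factors of 0.80 to 0.82 for Shengsimai and 1.02 to 1.05 for Zhoumai18. Levels compared between varieties are TMM-scaled CPM, counts scaled to a common library size, and levels compared between genes are FPKM. FPKM carries no such scaling, so a gene with a small difference can be higher in one unit and lower in the other. The libraries labelled Zhoumai18 at 0 h differed from those labelled Zhoumai18 at 48 and 96 h in a long stretch of neighbouring genes on chromosome 2D, described with the other stretches. Each named gene that falls there is marked, and counts over all genes include the stretch unless stated.

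Of the 44034 genes, 29874 (67.8%) passed an adjusted p of 0.05 in edgeR's quasi-likelihood test. They comprised 15581 genes (35.4%) higher in Shengsimai and 14293 (32.5%) lower. The 3 libraries of 1 variety lay wholly above those of the other in 30959 genes (70.3%), with Shengsimai above in 37.0% and below in 33.3% of all genes tested. With library size alone in place of TMM, the median log2 fold change of all genes moved by -0.35 and the calls were 24.6% higher and 75.4% lower in Shengsimai, against 52.2% and 47.8% with TMM. Many calls were small. The median size was 0.69 on the log2 scale, and 12291 of the called genes differed by less than 1.5-fold. At a minimum of 2-fold 10117 genes (23.0%) were called and the balance turned, with 3617 genes (8.21%) higher and 6500 (14.8%) lower in Shengsimai. Genes that reached the FPKM limit in all libraries of 1 variety and none of the other had to differ in FPKM. They numbered 1501 for Shengsimai and 5583 for Zhoumai18, and not all of the 5583 were called lower. Later statements that such a gene had to differ or be lower refer to FPKM. Among the other 36950 genes tested, 38.12% were called higher and 24.35% lower in Shengsimai. By at least 2-fold these were nearly even, with 2168 higher and 2178 lower.

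**Figure D1:**
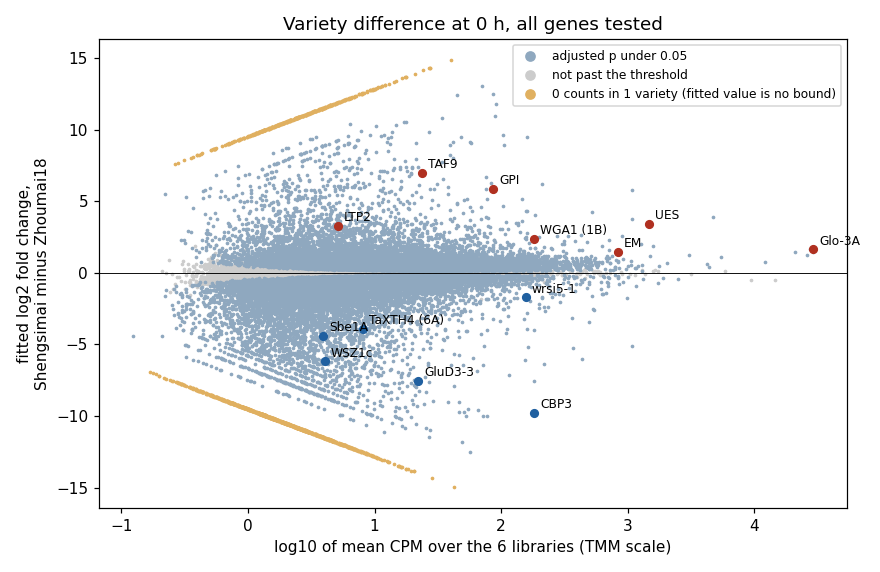
Each point is 1 of the 44034 genes tested, with the log10 of its mean CPM over the 6 libraries on the x axis and the fitted log2 fold change (Shengsimai minus Zhoumai18) on the y axis. Glo-3A and UES lie high at the abundant end, CBP3 and GluD3-3 far below 0, and the 1100 genes with 0 counts in 1 variety form the slanted edges, where the fitted value is no bound.

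Of the 10 genes with the highest mean FPKM over the 6 libraries, 2 carried a name in the table. They were the Glo-3A genes on chromosome 4A, which code for globulin 3, a vicilin-like storage protein of embryo and aleurone. TraesCS4A01G296000 had 47612, 41421 and 43546 CPM in the Shengsimai libraries and 15080, 13725 and 14128 CPM in the Zhoumai18 libraries. The groups were far apart, by 1.63 on the log2 scale (standard error 0.08, adjusted p = 5.2e-16, edgeR). Its neighbour TraesCS4A01G296100 had 42118 ± 3564 CPM (SD, n = 3) against 13188 ± 771 CPM, a difference of 1.68 on the log2 scale. Such near-identical neighbours can exchange reads in the counting. On the length-scaled unit the pair reached 15719 and 17131 FPKM in Shengsimai and 6375 and 6719 FPKM in Zhoumai18.

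Among the other abundant genes, which carried no name, TraesCS4B01G017500, TraesCS4D01G016000 and TraesCS4D01G016100 were higher in Shengsimai by 1.45, 1.26 and 1.44 on the log2 scale. TraesCS5A01G329000 and TraesCS5A01G432100 rose less, by 0.68 and 0.76. TraesCS5A01G329000 was at 0.33 with library size alone and no longer passed the threshold (adjusted p = 0.0567, edgeR). The most abundant of all, TraesCS5B01G146000 and TraesCS5D01G145200, had 25080 and 16098 FPKM in Shengsimai and 43809 and 28638 FPKM in Zhoumai18. Their CPM ranges did not overlap, at 10854 to 14638 against 15502 to 18758 for TraesCS5B01G146000, but the fold changes of -0.48 and -0.51 had standard errors of 1.21 and 1.08 and did not pass the threshold (adjusted p of 0.741 and 0.692, edgeR). The fit of all 27 libraries takes its spread from every group, and in a fit of the 6 libraries alone both genes passed it, with log2 fold changes of -0.54 and -0.56 (adjusted p of 0.0033 and 0.00045).

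A further pair on chromosome 5B stood out among abundant genes. TraesCS5B01G478100, which carries no name, had 10176, 8192 and 8081 CPM in Shengsimai and 603, 559 and 622 CPM in Zhoumai18, and UES (TraesCS5B01G478200) had 3020.2, 2516 and 2548 CPM against 267, 235 and 254 CPM. Every Shengsimai library lay above every Zhoumai18 library for both genes. The log2 fold changes were 3.89 and 3.42 (standard errors 0.13 and 0.11, adjusted p = 8.1e-20 and 2.4e-20, edgeR).

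Genes were grouped by the names that the table gives them, which cover 220 of the tested genes. Of these 220, 65 (29.5%) were higher and 97 (44.1%) lower in Shengsimai, against 35.4% and 32.5% of all genes tested. The FPKM limit was reached only in Zhoumai18 by 28 of them and only in Shengsimai by 2, and these had to differ. The lists are short, and each holds only the homoeologous copies that carry a name.

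Of the 9 abscisic acid signalling genes, all tested, 5 were higher in Shengsimai (55.6%, against 35.4% of all genes tested), 3 lower (33.3%, against 32.5%) and 1 did not pass the threshold. Their median log2 fold change was 0.45, against 0.03 over all genes tested. Scaled by library size alone, 3 were higher and 4 lower. W55a, among the 5 higher with TMM, lies in the stretch on 2D. ABFB (TraesCS3A01G371800), a bZIP factor of the abscisic acid response, had 219, 218 and 220 CPM in Shengsimai and 106, 93.2 and 96.2 CPM in Zhoumai18. The libraries did not overlap, and the difference was 1.15 on the log2 scale (standard error 0.06, adjusted p = 1.9e-15, edgeR). EmBP-1a (TraesCS5B01G470600), a bZIP factor first known for binding the Em promoter, had 95.3 ± 4.29 CPM against 37.0 ± 1.35 CPM (SD, n = 3), a difference of 1.37. Vp-1A (TraesCS3A01G417300), the wheat counterpart of maize Viviparous1 and a central factor of grain dormancy, had 70.7, 75.3 and 76.2 CPM against 50.3, 56.9 and 55.1 CPM. Its groups did not overlap either, but the difference was smaller, at 0.45 (standard error 0.06, adjusted p = 5.0e-07, edgeR). With library size alone it was 0.10 and no longer passed the threshold. The gene labelled BZIP1, another bZIP factor (TraesCS5B01G122000), rose by 0.48 at a low level of 4.47 ± 0.094 against 3.21 ± 0.378 CPM. It also lost the threshold with library size alone, at 0.13.

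W55a (TraesCS2D01G493700), an SnRK2-type kinase, had 76.5, 69.3 and 70.5 CPM in Shengsimai and 23.2, 26.2 and 25.1 CPM in Zhoumai18, a log2 fold change of 1.54. It lies inside the stretch on 2D in which the Zhoumai18 libraries at 0 h stood apart from the later ones, and the part of that stretch in its difference was not tested. The other members called were lower in Shengsimai. TaABI1 (TraesCS3A01G209200), a clade A protein phosphatase that restrains the abscisic acid signal, fell by 0.62 on the log2 scale. AIP2-1 (TraesCS5A01G216000), named after a ubiquitin ligase that in Arabidopsis targets ABI3, fell by 0.37. SnRK2.4 on 3A (TraesCS3A01G381100), a kinase of the same family as W55a, fell by 0.39, and its libraries overlapped at 6.49 to 7.89 CPM against 7.82 to 10.6 CPM. Leaving out replicate 3 of Zhoumai18 left AIP2-1 at -0.28 with an adjusted p of 0.0586, no longer past the threshold (edgeR).

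Em, the gene labelled EM (TraesCS1B01G237500), codes for a small protein of late embryogenesis that protects the drying embryo. It had 1133, 1324 and 1243 CPM in Shengsimai and 248, 574 and 518 CPM in Zhoumai18. All Shengsimai libraries lay above all Zhoumai18 libraries, and Zhoumai18 replicate 1 was the lowest of its group. The log2 fold change was 1.47 (standard error 0.19, adjusted p = 1.0e-07, edgeR). In the list of 5 desiccation proteins, 4 were tested, 1 was higher, 2 were lower and 1 did not pass. The shares higher and lower were 25% and 50%, against 35.4% and 32.5% of all genes tested. The lower members were the cold-induced dehydrins WCOR410 (TraesCS6D01G234700), at 3.78 ± 0.719 against 7.13 ± 1.74 CPM, and Wcor410c (TraesCS6B01G273400), at 0.536 ± 0.163 against 1.89 ± 0.444 CPM (SD, n = 3). Wcor410c reached the FPKM limit in Zhoumai18 only, so it had to be lower in Shengsimai.

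Of 7 storage genes 5 were tested, and the 2 that were higher in Shengsimai were the Glo-3A genes. The other 3 are endosperm genes that reached the FPKM limit in Zhoumai18 only, so they had to be lower in Shengsimai, and their values are given as a description. GluD3-3 (TraesCS1D01G000300), a low-molecular-weight glutenin of gluten, had 16, 2 and 10 counts in the Shengsimai libraries and 1393, 2431 and 2535 in the Zhoumai18 libraries. Its log2 fold change was -7.55 (standard error 0.29, adjusted p = 1.9e-18, edgeR). Avenin-like avnla (TraesCS7D01G032000) fell by 4.39, from 5.98 ± 1.94 CPM in Zhoumai18 to 0.285 ± 0.17 CPM in Shengsimai. Its relative avnlb (TraesCS4A01G453800) had 0, 3 and 0 counts against 153, 357 and 279, a ratio of 221 (95% counting interval 75.5 to 1080, which covers counting error only). None of these endosperm genes was abundant. The summed FPKM of the 5 endosperm marker genes, which also include 2 gliadin genes under the FPKM limit, was 0.478 to 0.913 in Shengsimai and 30.9 to 56.4 in Zhoumai18. In comparison, the summed FPKM of the embryo and aleurone markers (2 Glo-3A genes and EM) was 34428 to 37882 in Shengsimai and 14450 to 14586 in Zhoumai18, and 5 genes of green tissue stayed at or below 0.344. The part of tissue makeup in the list results was not tested.

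Of 4 starch synthesis genes 3 were tested, and 1 was higher, 1 lower and 1 not past the threshold. The share called was 66.7%, against 67.8% of all genes tested. Sbe1A (TraesCS7A01G549100), a starch branching enzyme, had 0.282, 0.443 and 0.342 CPM in Shengsimai and 6.20, 7.31 and 8.95 CPM in Zhoumai18. It reached the FPKM limit in Zhoumai18 only, so it had to be lower in Shengsimai. The difference was -4.38 on the log2 scale (standard error 0.19, adjusted p = 1.6e-17, edgeR). In contrast, the starch synthase wSs2a-1 (TraesCS7D01G190100) was higher in Shengsimai by 1.08, at 8.62 ± 1.09 against 4.08 ± 0.468 CPM. Sbe2 (TraesCS2A01G293400), the most abundant of the 3 tested synthesis genes in FPKM, had 19.2 ± 1.76 against 19.6 ± 0.835 CPM and a fold change of -0.04 with a standard error of 0.08. The only tested gene of starch breakdown, the alpha-amylase AMY4 (TraesCS2B01G306400), had 4.17 ± 0.34 against 4.07 ± 0.746 CPM. GA2ox5-2 (TraesCS3B01G166100), which inactivates gibberellin and was the only tested member of 4 gibberellin genes, had 1.64 ± 0.549 against 1.71 ± 0.238 CPM. Neither AMY4 nor GA2ox5-2 passed the threshold (adjusted p of 0.764 and 0.860, edgeR). AMY4 with library size alone was lower in Shengsimai at -0.31 (adjusted p = 0.0106) and Sbe2 at -0.38 (adjusted p = 0.00021, edgeR), both past the threshold.

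Among genes with a name in the table and more than 3 counts in each variety, the largest difference lay in a protease. CBP3 (TraesCS6B01G050700), a serine carboxypeptidase III of the kind that the aleurone secretes in germination, had 18, 16 and 16 counts in the Shengsimai libraries and 17903, 15795 and 18670 in the Zhoumai18 libraries. In CPM it stood at 0.415 ± 0.04 against 365 ± 27.7 (SD, n = 3). The log2 fold change was -9.77 (standard error 0.13, adjusted p = 1.3e-28, edgeR), an 876-fold difference. Baipimai, the third variety of the study, had 4591 counts over its 3 libraries at 0 h. CBP3 also reached the FPKM limit in Zhoumai18 only, so it had to be lower in Shengsimai. Its list held no other named member.

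The grain defence list holds serpins, amylase inhibitors and chitinases. Of 10 members 7 were tested, 6 lower and 1 higher, and 5 of the 6 reached the FPKM limit in all Zhoumai18 libraries and in no Shengsimai library. These 5 (WSZ2a, WSZ1c, ATI, Itrl-1 and Cht4) entered the comparison only through the variety in which they were high, so their direction was set by that limit and their count is no support. The serpin genes WSZ2a and WSZ1c, of a family that blocks proteases in the grain, were nearly absent from Shengsimai. WSZ2a (TraesCS5B01G419900) had 0 counts in all Shengsimai libraries and 183, 276 and 298 in Zhoumai18, which is at least 212-fold lower when 3 counts stand in for the empty group. WSZ1c (TraesCS5A01G359700) had 2, 8 and 3 counts against 289, 419 and 441, a log2 fold change of -6.18. The alpha-amylase and trypsin inhibitor gene labelled ATI (TraesCS4B01G328000) had 0.416 ± 0.17 against 4.81 ± 0.876 CPM and a difference of -3.53. The gene labelled Itrl-1 (TraesCS4A01G055200), of the same inhibitor family, had 9 against 199 counts in all.

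Chitinases, which attack fungal walls, split within the list. Cht4 (TraesCS2B01G369100) had 0 counts in Shengsimai and 149, 113 and 137 in Zhoumai18, at least 112-fold lower. Chi 2 (TraesCS2D01G033100) had 1.20, 1.80 and 1.42 CPM against 17.8, 16.3 and 14.4 CPM, or -3.45 on the log2 scale (standard error 0.12, adjusted p = 1.1e-19, edgeR). Chi 3 (TraesCS3A01G260200) was the exception, with 11.5, 16.8 and 13.1 CPM in Shengsimai and 2.36, 2.32 and 3.15 CPM in Zhoumai18. It was higher in Shengsimai by 2.399 on the log2 scale (standard error 0.21).

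A second set of inhibitors and a lectin was drawn up after the values were seen. All 7 members were tested, and 3 were higher and 4 lower in Shengsimai (42.9% and 57.1%, against 35.4% and 32.5% of all genes tested). The higher ones included both genes of the germ lectin WGA1, a chitin-binding protein of the wheat embryo. TraesCS1B01G340200 had 313, 291 and 318 CPM in Shengsimai and 45.6, 93.3 and 39.3 CPM in Zhoumai18, and TraesCS1A01G326800 had 109, 101 and 105 CPM against 10.9, 21.3 and 9.31 CPM. Zhoumai18 replicate 2 was the highest of its group for both, yet it remained far below any Shengsimai library. The log2 fold changes were 2.37 and 2.92 (standard errors 0.18 and 0.17). The xylanase inhibitor taxi-I (TraesCS3B01G514800) rose by 0.80. The Bowman-Birk type protease inhibitor wrsi5-1 (TraesCS1A01G265800) had 73.9 ± 7.01 against 240 ± 19.9 CPM and fell by 1.70, while its relatives wali3 (TraesCS1D01G265900) and wali6 (TraesCS1B01G276900) fell by 0.76 and 0.63. The chymotrypsin inhibitor WZCI (TraesCS5B01G362000), which reached the FPKM limit in Zhoumai18 only, had 2 counts against 634, a ratio of 267 (95% counting interval 73.5 to 2210). Its direction was set by that limit.

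Lipid transfer proteins, also grouped after the values were seen, were higher in Shengsimai in 4 of 5 tested genes and lower in none, against 35.4% higher and 32.5% lower over all genes tested. LTP2 (TraesCS3B01G062800) had 10.3, 8.98 and 8.57 CPM against 0.698, 1.28 and 0.891 CPM, a rise of 3.27 on the log2 scale (standard error 0.26, adjusted p = 7.2e-12, edgeR). The other LTP2 genes, TraesCS3B01G062900 and TraesCSU01G213500, rose by 2.99 and 3.02 with wide standard errors of 0.67 and 0.78. Among wall-loosening enzymes, 1 of 3 passed the threshold (33.3%, against 67.8% of all genes tested). TaXTH4 on 6A (TraesCS6A01G408300), a xyloglucan endotransglucosylase, had 0.794, 1.06 and 1.17 CPM against 23.3, 9.80 and 12.7 CPM and a log2 fold change of -3.91. It reached the FPKM limit in Zhoumai18 only, so it had to be lower in Shengsimai. PHS1 (TraesCS7B01G132000), the single gene of the dormancy list, is a symbol used for more than one gene and is given no role here. It had 4.36, 6.69 and 6.25 CPM against 3.62, 4.55 and 3.03 CPM, with overlapping groups and a difference of 0.63 on the log2 scale (adjusted p = 0.0021, edgeR). With library size alone it was 0.28 and no longer passed the threshold. The flavonoid list (3 genes) and the photosynthesis list (132 entries, many of them copies of plastid genes) held no gene that reached the FPKM limit.

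**Figure D2:**
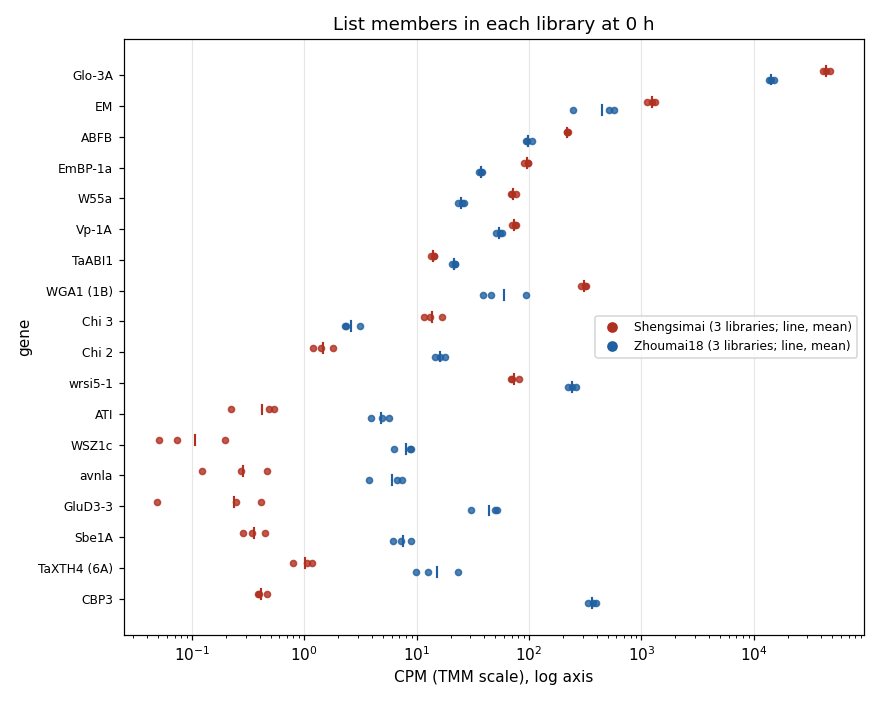
CPM (TMM scale, log axis) of 18 members of the lists in the 3 Shengsimai and 3 Zhoumai18 libraries at 0 h, with a vertical line at each group mean. The 6 libraries separate by variety for every gene shown, from a difference of 0.45 on the log2 scale for Vp-1A to -9.77 for CBP3. List members whose groups overlap, such as PHS1 and AMY4, are not shown, so the separation does not describe the lists as a whole. Genes that reached the FPKM limit in Zhoumai18 only, such as CBP3, had to be lower in Shengsimai. Over all genes tested, the groups did not overlap in 70.3%.

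Other named genes were taken by size of fold. CBF6 (TraesCS5A01G312000), a cold-response transcription factor, had 5.46, 6.08 and 4.64 CPM in Shengsimai and 34.1, 22.0 and 22.4 CPM in Zhoumai18, and fell by 2.28. ZFP34 (TraesCS5B01G490600), labelled as a zinc finger protein, fell by 3.00, and BCP (TraesCS4A01G033600), whose label gives no role, fell by 4.77. BCP reached the FPKM limit in Zhoumai18 only, so it had to be lower in Shengsimai. GPI (TraesCS1B01G053600), glucose-6-phosphate isomerase of sugar metabolism, had 162, 175 and 176 CPM in Shengsimai and 2.71, 2.91 and 3.27 CPM in Zhoumai18. Its rise was the largest of the 220 genes with a name in the table, at 5.85 (standard error 0.09, adjusted p = 1.1e-26, edgeR).

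Homoeologous copies of a gene did not always move together. The genes of the next 2 examples were singled out after their values were seen, apart from Skp1 on 6A and TFIID on 1B. The protein disulfide isomerase pdil4-1 has a named copy in each subgenome. On 1B (TraesCS1B01G126100) it had 127 ± 6.44 CPM in Shengsimai and 28.8 ± 3.6 CPM in Zhoumai18, a log2 fold change of 2.14. On 1A (TraesCS1A01G097700) the values were 119 ± 3.1 and 132 ± 6.67 CPM, and on 1D (TraesCS1D01G106500) 149 ± 3.24 and 131 ± 7.75 CPM, with fold changes of -0.15 and 0.18. The direction of the 1D copy flipped to -0.16 with library size alone. TFIID, the TATA-binding protein, had 27.02 ± 0.566 against 3.24 ± 0.183 CPM on 1B (TraesCS1B01G151700) and 7.06 ± 0.816 against 7.20 ± 0.384 CPM on 1A (TraesCS1A01G139600). Skp1, a subunit of SCF ubiquitin ligases, was lower in Shengsimai on 6A (TraesCS6A01G000300, 32.5 ± 1.89 against 157 ± 4.85 CPM) and higher on 6B (TraesCS6B01G004300, 282 ± 5.99 against 86.6 ± 6.06 CPM). Reads of such copies can be shared out by the counting.

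Among genes without a name, several had large counts in one variety and none in the other. TraesCS6B01G242200 had 3104, 3312 and 3230 counts in Shengsimai and 0 in Zhoumai18, at least 3820-fold higher. Triticum_aestivum_newGene_46675 had 2399, 2053 and 2212 counts against 0. In the opposite direction, Triticum_aestivum_newGene_30795 had 0 counts in Shengsimai and 3911, 3940 and 4327 in Zhoumai18, at least 3420-fold lower, and TraesCS1A01G008000 had 0 against 1639, 3199 and 3365. With expression in both varieties, TraesCS4B01G099700 fell by 7.16, from 230 ± 49.8 to 1.60 ± 0.194 CPM. TraesCS7D01G449300 fell by 6.36, while TraesCS7B01G468500 and TraesCS6B01G307500 rose by 6.67 and 6.52.

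Among the 44034 genes tested, those with at least 30 counts in 1 variety and at most 3 in the other were counted over its 3 libraries. They numbered 438 for Shengsimai and 996 for Zhoumai18. Genes under the FPKM limit are not in these numbers. That limit let in 1501 genes through Shengsimai only and 5583 through Zhoumai18 only, which bears on both numbers. The libraries at 48 and 96 h took no part in choosing them. Of the 438 genes absent from Zhoumai18, 247 (56.4%) stayed at or below 3 counts there at both later times, 234 of these with at least 30 counts still in Shengsimai, and 132 (30.1%) reached 30 counts at one of them. Of the 996 genes absent from Shengsimai, 491 (49.3%) stayed at or below 3 counts and 242 (24.3%) reached 30. Only 281 of the 491 still had at least 30 counts in Zhoumai18, and 201 of the 996 were lost from Zhoumai18 by 96 h. Baipimai at 0 h had at least 30 counts for 317 of the 438 and for 295 of the 996.

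Called genes were spread over all chromosomes, but chromosome 1B differed from the rest. On 1B, 52.2% of 1646 tested genes were higher in Shengsimai and 27.04% were higher by at least 2-fold. On the other 20 chromosomes 3.37 to 11% were higher by at least 2-fold, and 11.05 to 15.2% were lower by that much, against 10.3% on 1B. In bins of 100 consecutive identifiers with at least 20 tested genes, of which there were 970, the median share of genes at least 2-fold higher was 4.71%. It reached 40% in 24 bins, and the share lower reached 40% in 5.

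All 11 of the 1B bins that reached 40% lay in a block. Between TraesCS1B01G030000 and TraesCS1B01G149800, 330 genes were tested, and 299 of them (90.6%) were at least 2-fold higher in Shengsimai. Their median log2 fold change was 2.81 and the middle 50% of genes ran from 1.84 to 4.28. Each bin of the block with at least 20 tested genes had a share of 80.0 to 97.3%. In the next bin the share dropped to 22.0%, and over the rest of 1B, with 1316 tested genes, 11.1% were higher by 2-fold and 12.2% lower. The bins before the block held fewer than 20 tested genes each and are counted in that rest. Where the block begins was therefore not settled. The GPI and pdil4-1 genes on 1B lie in this block. The summed level of the 330 genes was 10683 to 10796 CPM in Shengsimai, 8848 to 9166 CPM in Baipimai and 2291 to 2300 CPM in Zhoumai18. Zhoumai18 alone was low, and it was as low in the later libraries, at 1903 to 1909 CPM at 48 h and 2081 to 2087 CPM at 96 h. Of the 299 genes, 268 were still at least 2-fold apart at 48 h and 256 at 96 h.

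A short block of the same kind opened chromosome 3D. From TraesCS3D01G001300 to TraesCS3D01G009800, 19 of 21 tested genes (90.5%) were at least 2-fold higher in Shengsimai, with a median of 4.14 on the log2 scale. Their summed level was 803 to 816 CPM in Shengsimai and 151 to 180 CPM in Zhoumai18, and it stayed at 108 to 155 CPM in the later Zhoumai18 libraries. On 5B, 67 of 135 genes (49.6%) from TraesCS5B01G310000 to TraesCS5B01G359900 were higher by 2-fold. The summed level there was 5647 to 6121 CPM against 2209 to 2369 CPM. This difference also remained later, with 1661 to 2057 CPM in Zhoumai18.

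The stretch on 2D behaved differently from those on 1B, 3D and 5B. From TraesCS2D01G471900 to TraesCS2D01G529400, 92 of 139 genes (66.2%) were at least 2-fold higher in Shengsimai at 0 h, with a median of 1.48. The summed level was 4426 to 4724 CPM in Shengsimai, 4230 to 4460 CPM in Baipimai and 1831 to 1899 CPM in Zhoumai18. In the Zhoumai18 libraries at 48 h it was 3702 to 4116 CPM, and at 96 h 5078 to 5137 CPM. Shengsimai had 4055 to 4424 CPM at 48 h and 3983 to 4254 CPM at 96 h, so Zhoumai18 was above it at 96 h. Of the 92 genes, 5 were still 2-fold higher in Shengsimai at 48 h and 15 at 96 h. Genes with at most 3 counts at 0 h and at least 30 at both later times were also crowded there in Zhoumai18. Bins of the stretch held 16, 11 and 13 of them and the bin after it 21, where the median over all bins was 1. A further 3 bins, on 1A, 6B and 7B, held 10 to 12. No bin held more than 8 such genes in Baipimai or 5 in Shengsimai. Shorter stretches on 1A, 2B and 6A, higher in Shengsimai at 0 h, were also higher in Zhoumai18 in summed level at 96 h. Zhoumai18 had 231 to 238 CPM at 0 h and 433 to 450 CPM at 96 h on 1A. On 2B these were 172 to 178 and 361 to 372 CPM, and on 6A 488 to 612 and 864 to 890 CPM. Of genes 2-fold higher at 0 h, 3 of 9 on 1A and 6 of 11 on 2B still were at 96 h. On 6A it was 15 of 19. Whether the spikes labelled Zhoumai18 at 0 h and at later times were alike in the stretch on 2D was not tested. Without its 139 genes, 15468 genes were called higher and 14280 lower in Shengsimai, of which 3525 were higher and 6491 lower by at least 2-fold.

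**Figure D3:**
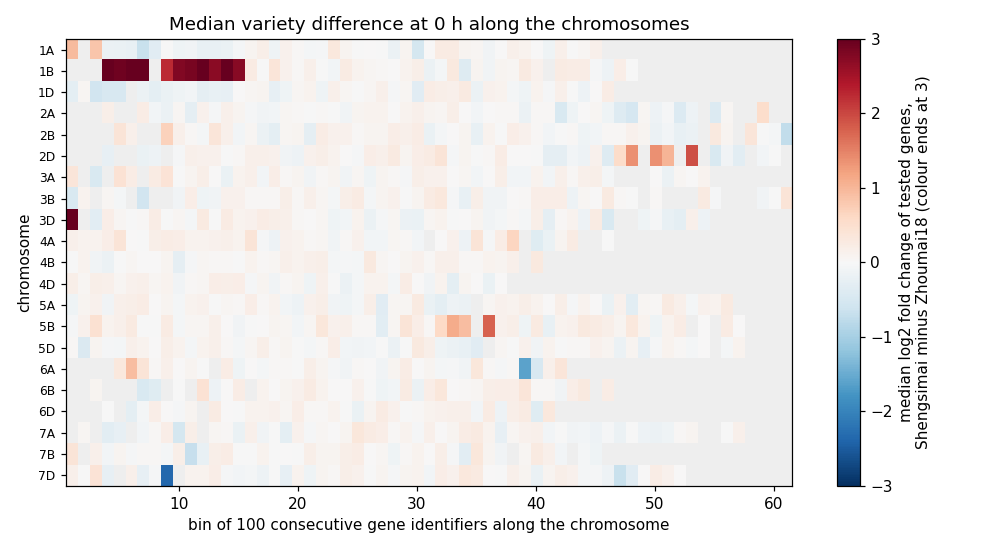
Median fitted log2 fold change (Shengsimai minus Zhoumai18) of the tested genes in bins of 100 consecutive identifiers, by chromosome, with colours ending at 3 and grey for bins under 20 tested genes. The block on 1B and the first bin of 3D are the deepest red, with stretches on 2D and 5B, and single blue bins stand on 6A and 7D.

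**Figure D4:**
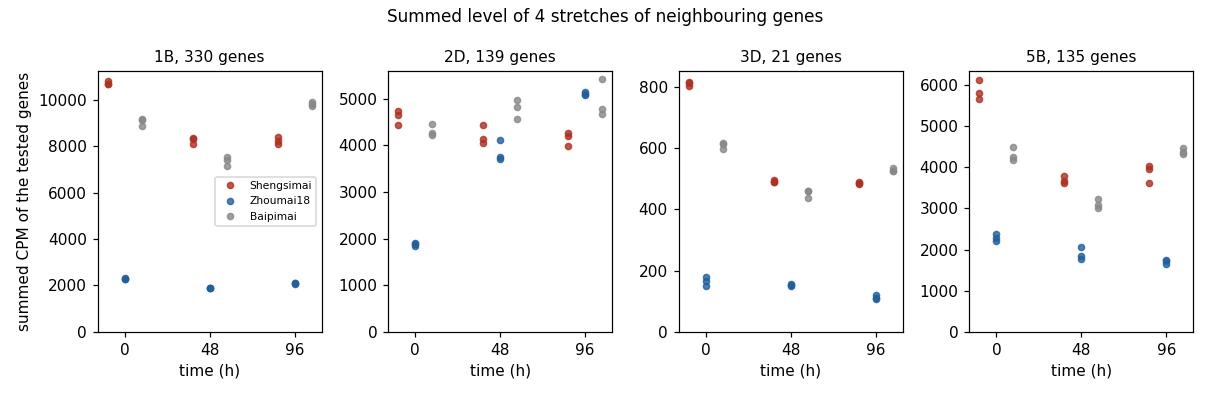
Summed CPM of the tested genes of 4 stretches in each of the 27 libraries, by time in hours and variety, 1 point a library. Zhoumai18 is low at all times on 1B, 3D and 5B, whereas on 2D it is low at 0 h (1831 to 1899 CPM) and not at 48 or 96 h.

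Bins that were lower in Shengsimai were single. On 6A, 17 of 28 genes (60.7%) from TraesCS6A01G380500 to TraesCS6A01G389500 were at least 2-fold lower, and on 7D, 15 of 29 (51.7%) from TraesCS7D01G081700 to TraesCS7D01G089900. Their medians were -1.60 and -2.35. The summed level ran the other way on 6A, at 586 to 602 CPM in Shengsimai and 520 to 533 CPM in Zhoumai18, and on 7D it was 142 to 144 CPM against 185 to 209 CPM. Runs of at least 5 neighbouring genes with at least 30 counts in 1 variety and at most 3 in the other numbered 3 for Shengsimai (16 genes) and 7 for Zhoumai18 (50 genes). The longest lay on 3D, where 15 genes from TraesCS3D01G453400 to TraesCS3D01G455900 had 6672 counts in Zhoumai18 and 0 in Shengsimai. All 15 remained at or below 3 counts in Shengsimai at 48 and 96 h, and all but 1 had more than 3 counts in Baipimai at 0 h. The longest run with counts in Shengsimai held 6 genes on 7A, from TraesCS7A01G007500 to TraesCS7A01G008000, with 1714 counts against 3. Of these, 3 stayed at or below 3 counts in Zhoumai18 over the later libraries, and 5 had at most 3 counts in Baipimai at 0 h. Another run in Shengsimai, 5 genes from TraesCS2D01G533400 to TraesCS2D01G533800, lay just after the stretch on 2D. None of its genes stayed at or below 3 counts in Zhoumai18 over the later libraries.

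The arm of 3D with the longest Zhoumai18 run also holds the region that the study names QSS.TAF9-3D, whose genes were picked by the study with these samples in view. TraesCS3D01G468500, named there as the transcription initiation factor TAF9, had 46.8, 44.4 and 49.6 CPM in Shengsimai and 0.371, 0.616 and 0.139 CPM in Zhoumai18. The groups lay far apart, by 6.98 on the log2 scale (standard error 0.31, adjusted p = 3.3e-17, edgeR). Baipimai, which the study also counts as resistant and as TT at the marker like Shengsimai, was as low as Zhoumai18. Its mean was 0.168 CPM at 0 h, against 0.375 CPM in Zhoumai18. TraesCS3D01G466100, named there as a RING-type ubiquitin ligase, had 28.3 ± 2.6 CPM against 20.1 ± 0.244 CPM and rose by 0.49, while Baipimai had 21.3 ± 2.26 CPM. With library size alone it was 0.14 and no longer passed the threshold. TraesCS3D01G468400, named there as the seed colour regulator Tamyb10-D, had 1 count in the 6 libraries, so a difference was not detectable at this depth.

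In most genes the difference at 0 h changed by 96 h. The change between these times passed an adjusted p of 0.05 in 31731 of 44034 genes (72.1%). It ran towards higher in Shengsimai in 16477 (37.4%) and towards lower in 15254 (34.6%). In GluD3-3 (TraesCS1D01G000300) it closed by 6.76 on the log2 scale, as the counts in Zhoumai18 went from 6359 over its 3 libraries to 69 at 96 h. LTP2 (TraesCS3B01G062800) changed by -6.67, with 5440 counts in Zhoumai18 and 481 in Shengsimai at 96 h. EM (TraesCS1B01G237500) changed by 8.83, as Zhoumai18 went from 64503 counts to 20 at 96 h and Shengsimai from 148986 to 23943. CBP3 (TraesCS6B01G050700) changed by 0.70 only, with 196602 against 338 counts at 96 h. TFIID on 1B (TraesCS1B01G151700) had a change of 0.07 (standard error 0.21) that did not pass the threshold. A smaller difference at 96 h can follow from either variety. Genes named for a large difference at 0 h were chosen on values that enter this change.

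**Figure D5:**
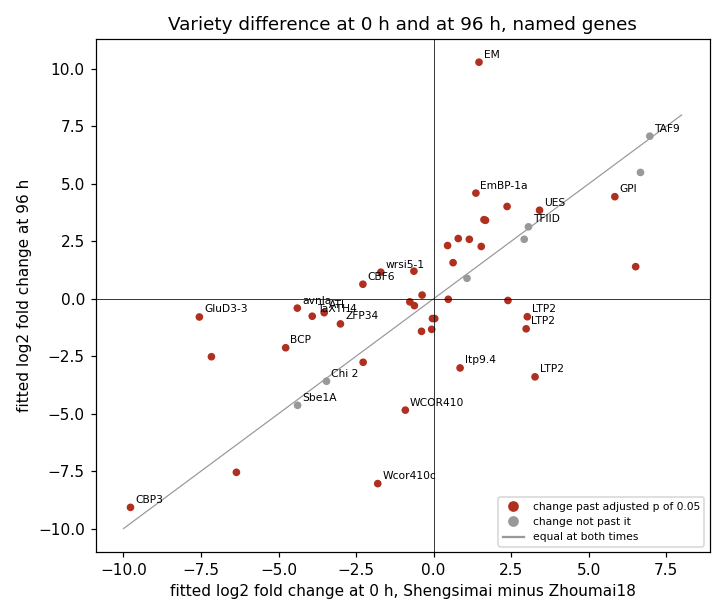
Fitted log2 fold change (Shengsimai minus Zhoumai18) at 0 h on the x axis and at 96 h on the y axis for 48 named genes with more than 3 counts in both varieties at both times. Red points are the 41 genes whose change passed an adjusted p of 0.05, and the grey line marks equal values; GluD3-3 moves up towards 0 and LTP2 crosses it, while CBP3 stays near the line.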

How the data were processed

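RNA was sequenced from whole spikes of 3 wheat varieties at 3 times. The deposited table holds the authors' whole-number counts, not normalized, beside their FPKM values, in which length and depth are divided out. A sequencing company made both. The aligner, counter and genome build are not given in the sources used here. A table of resistance classes in words was not used, and 1 broken line was left out.

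The members and lists were chosen with earlier results of these data known. Counts were tested with edgeR 4.0.16 (R 4.3.3; quasi-likelihood, TMM scaling) in 1 fit of 27 libraries with 9 group means, with Benjamini-Hochberg adjustment over the 44034 genes and a threshold of 0.05. Standard errors are the fold change divided by the square root of F. The test was tried on simulated data. Alternatives were other scalings, DESeq2 1.42.0, limma 3.58.1 on log2(FPKM + 1) and log2(FPKM + 0.1), a fit of the 6 libraries, no filter, a 2-fold minimum, a replicate block and leaving out each library. Replicate pairs had a Spearman correlation of 0.979 to 0.993 and a chi-square per degree of freedom of 3.75 to 18.2, so none was 1 library deposited in 2 copies. Each library was a spike.

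Named genes were taken by rule. Among called genes with separate groups and a higher mean of at least 10 FPKM, these were the 6 largest fold changes each way, overall and among genes with at least 1 FPKM in both varieties. The others were the 2 largest each way and the most abundant member of each list, the 10 most abundant genes, 3 genes of QSS.TAF9-3D and the ends of the longest runs. Genes without a name were limited to 2 each way. Names come from the nearest database hit in the table, and for 13 tested genes its locus number was translated with NCBI RefSeq (IWGSC CS RefSeq v2.1). Other list members and the genes said to be singled out were named after their values were seen, as were the stretches of bins. Bounds are against 3 counts over a group, and intervals cover counting error only. Sequences and positions were not analysed here.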

Additional observations from a re-analysis of the deposited data

Results flagged for a closer look

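The variety difference itself was tested for a change between 0 and 96 h, and it changed in 31731 of the 44034 genes (adjusted p under 0.05, edgeR). The following named genes are among them, each with the change in log2 fold change from 0 to 96 h. Values above 0 mean that Shengsimai gained on Zhoumai18. These genes were chosen for large differences at 0 h, and the change subtracts those same values, so the choice itself favours shrinking. Differences that were negative at 0 h shrank in GluD3-3 (TraesCS1D01G000300, 6.76), TraesCS4B01G099700 (4.64), TaXTH4 (TraesCS6A01G408300, 3.15), CBF6 (TraesCS5A01G312000, 2.91, which turned its sign), BCP (TraesCS4A01G033600, 2.64), ZFP34 (TraesCS5B01G490600, 1.91) and CBP3 (TraesCS6B01G050700, 0.70). They grew in TraesCS7D01G449300 (-1.19) and Skp1 on 6A (TraesCS6A01G000300, -0.49). Differences that were positive at 0 h shrank in TraesCS6B01G307500 (-5.12) and GPI (TraesCS1B01G053600, -1.40), turned their sign in LTP2 (TraesCS3B01G062800, -6.67) and grew in UES (TraesCS5B01G478200, 0.44). Groups of 3 libraries were not tested for outlying libraries.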

How the results depend on the processing

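Leaving out each of the 6 libraries in turn gave 28180 to 28586 genes called, 14640 to 14861 higher and 13447 to 13727 lower in Shengsimai, and 30881 to 31253 for the change to 96 h. DESeq2, RLE scaling and upper quartile scaling kept each of these counts within 1.5 times, as did the fit of the 6 libraries alone for the counts at 0 h, since it holds no 96 h libraries. The direction of calls depended on scaling. With library size alone 7633 genes were higher and 23437 lower, with limma on log2(FPKM + 1) 8132 and 22617 (26.4% and 73.6% of calls), and with limma on log2(FPKM + 0.1) 7908 and 22435 (26.1% and 73.9%). The median of all genes moved by -0.11 with upper quartile scaling, -0.26 with limma on log2(FPKM + 1) and -0.31 on log2(FPKM + 0.1). Without a filter, which tests more genes, 51593 were called, 28472 of them lower, and 54247 changed by 96 h. At a 2-fold minimum, 10117 were called (3617 higher, 6500 lower) and 17778 changed.

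The labels do not say whether the replicate numbers shared by the varieties mark pairs, so the reported fit did not use them as pairs. Same-numbered libraries had correlated deviations of 0.10, 0.06 and 0.04, and each correlated best with its own number. With a replicate block 29939 genes were called, 15629 higher and 14310 lower, and 31786 changed.

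Of 78 named genes tested, 64 kept direction and side of the threshold under every alternative fit. TraesCS5A01G329000 lost the threshold with library size alone and both limma fits (0.33, 0.34 and 0.34), and with these fits AMY4, Sbe2 and TFIID on 1A gained it as lower in Shengsimai. The signs that turned belong to small values. They were pdil4-1 on 1D (TraesCS1D01G106500; -0.16 with library size alone, -0.14 with limma at either pseudocount), AMY4 (TraesCS2B01G306400; -0.071 with upper quartile scaling, -0.31 with library size alone, -0.022 with the 6 libraries alone, -0.20 and -0.27 with limma, and -0.080 to 0.19 when each library was left out), Sbe2 (TraesCS2A01G293400; 0.018 without a filter, -0.11 to 0.020 with libraries left out), TFIID on 1A (TraesCS1A01G139600; 0.025 without a filter, -0.12 to 0.038 with libraries left out) and GA2ox5-2 (TraesCS3B01G166100; -0.345 to 0.15 with libraries left out). Of these, pdil4-1 on 1D was past the threshold in the reported fit. The cause was not tested. With 3 spikes a variety at each time, p-values measure only the spread between spikes within groups, estimated over all 9 groups of the fit.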
